A study of Mus musculus with 20 samples.

Results

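The 8 genes that mark Purkinje cells, Pcp2, Pcp4, Calb1, Pvalb, Gng13, Rgs8, Ppp1r17 and Dner, were followed one by one in cerebellar RNA of mice with a polyglutamine expansion in ataxin-3. They were picked by symbol for their known enrichment in Purkinje cells. These genes and the gene lists used below were chosen with earlier results of these data known. The Ensembl identifiers of the 8 genes were found among the 29200 genes of the count table. All 8 passed the limit of a mean of 50 counts that left 12153 genes for testing. RNA-seq compared 4 groups of 5 mice on the C57BL6/N strain, WT/WT and 304Q/304Q mice aged 2 months and mice of the same genotypes aged 12 months. The 304Q/304Q mice carried the expanded, interrupted CAACAG repeat in both alleles of the endogenous murine Atxn3 gene, so that no transgene promoter was involved. The repeat had been inserted with zinc-finger nucleases, and the mice came from 1 founder line. The label of the WT/WT mice names the gene ataxin-2, whereas the series and the study name ataxin-3. Only males were sequenced, whole cerebella had been kept in RNAlater, and samples of high RNA integrity had been selected.

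Purkinje cells are the large GABAergic neurons whose axons carry the output of the cerebellar cortex to the deep nuclei. They receive parallel fiber input from granule cells and climbing fiber input from the inferior olive, and they rely on strong calcium buffering and on metabotropic, G protein-coupled signaling in their dendrites. Spinocerebellar ataxias are diseases in which cerebellar circuits, these neurons among them, are affected.

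Total counts ran from 11385380 to 27636687 per library, and the highest belonged to 304Q/304Q replicate 1 of 2 months, with all other groups between 11385380 and 15136892. Atxn3, the gene that carries the expansion, was lower in 304Q/304Q mice by a log2 fold change of -0.54 ± 0.12 (SE) at 2 months (edgeR quasi-likelihood test, Benjamini-Hochberg adjusted p = 0.0916) and of -0.13 ± 0.12 at 12 months (adjusted p = 0.51), and neither passed the threshold of 0.05. Libraries deviated from their group in step with the GC content of genes, with correlations across 12140 genes, which are not independent replicates, of -0.469 to 0.399. In WT/WT mice of 12 months the correlation was -0.469 in replicate 1 and 0.31 in replicate 3.

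The 250 bases before the RefSeq start are shown for the 4 genes that met the criteria for a differentially expressed gene (DEG) at 12 months. To be a DEG, a gene needed an adjusted p no higher than 0.05 together with a log2 change of 0.5 or more up or down. The sequences are from RefSeq (GRCm38.p6), for the most upstream start of each gene, and run from 5′ to 3′ on the strand of the gene. They lie at chr17:25716922-25717171 on the plus strand for Gng13, chr16:96467356-96467605 on the plus strand for Pcp4, chr8:3625548-3625797 on the minus strand for Pcp2 and chr1:153652787-153653036 on the plus strand for Rgs8. Capitals mark AGGTCA, the core letters of the site bound by nuclear receptors such as ROR-alpha, read on both strands.
Gng13: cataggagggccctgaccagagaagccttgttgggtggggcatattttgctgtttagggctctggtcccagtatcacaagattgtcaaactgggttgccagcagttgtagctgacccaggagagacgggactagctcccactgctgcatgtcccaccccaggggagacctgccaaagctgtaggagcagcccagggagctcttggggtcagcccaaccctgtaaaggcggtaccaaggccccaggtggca
Pcp4: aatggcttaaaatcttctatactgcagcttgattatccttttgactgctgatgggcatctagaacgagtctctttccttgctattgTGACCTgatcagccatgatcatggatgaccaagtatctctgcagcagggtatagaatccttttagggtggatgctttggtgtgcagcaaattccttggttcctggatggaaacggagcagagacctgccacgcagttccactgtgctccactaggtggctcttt
Pcp2: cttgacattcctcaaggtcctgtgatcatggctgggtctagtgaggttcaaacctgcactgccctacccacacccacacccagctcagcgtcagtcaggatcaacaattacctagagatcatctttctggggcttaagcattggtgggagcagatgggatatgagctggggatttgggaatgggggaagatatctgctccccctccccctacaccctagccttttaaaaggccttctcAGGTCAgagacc
Rgs8: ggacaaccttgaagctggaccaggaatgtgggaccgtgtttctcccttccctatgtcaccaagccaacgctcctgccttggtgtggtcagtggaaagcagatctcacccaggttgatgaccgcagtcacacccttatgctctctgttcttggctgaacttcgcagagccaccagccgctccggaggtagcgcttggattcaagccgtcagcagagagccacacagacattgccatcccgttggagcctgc
AGGTCA was found in the windows of Pcp2, starting 12 bases before the RefSeq start, and of Pcp4, on the opposite strand, and in neither of the other two. It was also in the window of Dner and not in that of Pvalb, and no entry was matched for Calb1 and Ppp1r17. The letters were present in 13.8% of 27025 promoter windows of the same length, and TATAAA, in 13.0% of them, was in none of the 6 windows of these genes. A match describes the letters of the window and not a bound site.

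At 12 months all 8 genes were lower in 304Q/304Q mice than in WT/WT mice, where Calb1 fell by 16.4% and Gng13 fell by 37.1%. Each passed the adjusted p, against 7.3% of all tested genes that were lower at this threshold, and 4 were DEGs, against 1.83%. The study itself used DESeq2 and surrogate variables. With 3 surrogate variables in the model only Gng13 remained a DEG, in edgeR and in DESeq2, while all 8 genes still passed the adjusted p. In these fits 190 (edgeR) and 182 (DESeq2) of 12153 tested genes were lower DEGs. Pcp2, Pcp4 and Rgs8 then had log2 fold changes of -0.49, -0.49 and -0.48 in edgeR. In all 8 the values of the 5 304Q/304Q mice lay below those of the 5 WT/WT mice, as they did for 5.43% of all tested genes. The median log2 fold change of the 8 genes was -0.49, against -0.004 over all genes tested. In RNA of a whole tissue, fewer Purkinje cells and less of these RNAs in each cell cannot be told apart.

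**Figure D1:**
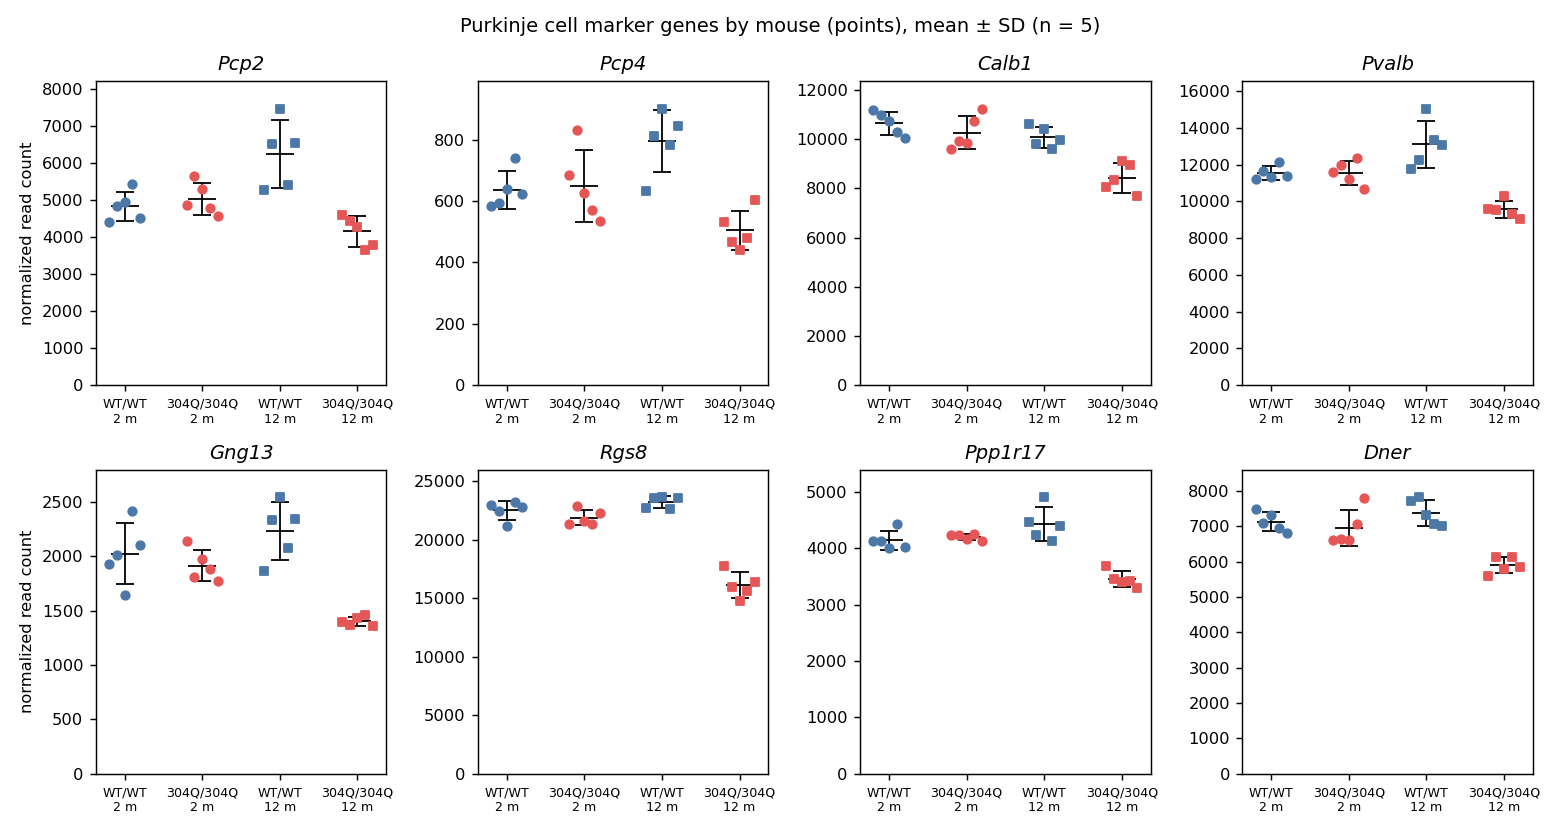
Normalized read counts (y axis, from 0) of the 8 marker genes in each mouse (points) of the 4 groups (x axis, WT/WT in blue, 304Q/304Q in red), with the mean and SD of 5 mice in black. At 2 months the genotypes overlap in every panel, and at 12 months no red point reaches the blue ones.

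The genes are described by role, beginning with G protein signaling. Gng13 encodes a G protein gamma subunit. From reference expression data, the study placed this gene among those changed in mice and patients that it attributed to myelinating oligodendrocytes. The normalized read counts of Gng13 at 12 months were 1868, 2335, 2544, 2074 and 2346 in the WT/WT mice and 1401, 1367, 1432, 1459 and 1364 in the 304Q/304Q mice. The 304Q/304Q mice lay close together, all below the lowest WT/WT mouse, with means of 2233 ± 264 and 1404 ± 41.0 (SD, n = 5). Its log2 fold change was -0.67 ± 0.084 (edgeR quasi-likelihood test, Benjamini-Hochberg adjusted p = 5.85e-06).

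Rgs8 encodes a regulator of G protein signaling that speeds the return of G alpha subunits to their inactive state. Its counts were 22684, 23601, 23634, 22618 and 23598 in WT/WT and 17782, 15937, 14787, 15626 and 16412 in 304Q/304Q mice of 12 months. The WT/WT mice were nearly alike, and every 304Q/304Q mouse fell far below them. The log2 fold change of -0.53 ± 0.042 (edgeR quasi-likelihood test, Benjamini-Hochberg adjusted p = 6.95e-09) lay just past the fold limit of a DEG and was -0.50 without 304Q/304Q replicate 3, where the gene was no longer a DEG.

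Pcp2 encodes a modulator of inhibitory G proteins that is found in Purkinje cells and retinal bipolar cells. It had 5287, 6525, 7472, 5408 and 6539 counts in the WT/WT mice and 4589, 4448, 4286, 3661 and 3781 in the 304Q/304Q mice. The WT/WT mice were spread widely, with replicate 3 the highest, and the groups did not overlap. The log2 fold change was -0.59 ± 0.087 (edgeR quasi-likelihood test, Benjamini-Hochberg adjusted p = 4.2e-05).

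Among the genes of calcium handling, the calmodulin-binding Pcp4 had the largest fold change. Its counts, the lowest of the 8 genes, were 633, 814, 901, 781 and 845 in WT/WT and 532, 467, 440, 481 and 602 in 304Q/304Q mice. WT/WT replicate 1 lay only slightly above the highest 304Q/304Q mouse, replicate 5, so that the groups were barely apart. The log2 fold change was -0.65 ± 0.11 (edgeR quasi-likelihood test, Benjamini-Hochberg adjusted p = 0.00027).

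Pvalb encodes parvalbumin, a calcium buffer that molecular layer interneurons share with Purkinje cells. It had 11767, 12237, 15043, 13357 and 13073 counts in WT/WT and 9600, 9545, 10313, 9302 and 9045 in 304Q/304Q mice, and the groups were clearly apart. Its log2 fold change was -0.45 ± 0.055 (edgeR quasi-likelihood test, Benjamini-Hochberg adjusted p = 4.26e-06), short of the fold limit of a DEG.

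Calb1 encodes calbindin, the other calcium buffer of these cells. Its counts were 10614, 9829, 10413, 9591 and 9961 in WT/WT and 8047, 8331, 9127, 8940 and 7684 in 304Q/304Q mice. The highest 304Q/304Q mouse lay just below the lowest WT/WT mouse. The log2 fold change of -0.26 ± 0.053 (edgeR quasi-likelihood test, Benjamini-Hochberg adjusted p = 0.00166) was the smallest of the 8, and it depended on the GC trend of the libraries. Calb1 had the lowest GC content of the 8 genes (36.8%), and with the trends with GC content and exon length removed, an alternative chosen after the data were seen, its log2 fold change was -0.50. The same removal raised the SD of Calb1 within groups from 0.074 to 0.129 on the log2 scale.

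Ppp1r17 encodes a substrate of the cGMP-dependent protein kinase that inhibits protein phosphatases. Its counts were 4470, 4234, 4899, 4130 and 4389 in WT/WT and 3683, 3444, 3400, 3411 and 3293 in 304Q/304Q mice, without overlap. Its log2 fold change was -0.36 ± 0.048 (edgeR quasi-likelihood test, Benjamini-Hochberg adjusted p = 1.2e-05).

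Dner encodes a transmembrane protein with EGF repeats that acts as a Notch ligand on Purkinje cells. Its counts were 7704, 7814, 7328, 7056 and 6993 in WT/WT and 5604, 6133, 5798, 6123 and 5853 in 304Q/304Q mice. All 304Q/304Q mice lay well below the WT/WT mice. The log2 fold change was -0.32 ± 0.050 (edgeR quasi-likelihood test, Benjamini-Hochberg adjusted p = 8.74e-05).

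The order of the falls, from Gng13 and Pcp4 over Pcp2, Rgs8, Pvalb, Ppp1r17 and Dner to Calb1, was not resolved between the genes by the test that was run. The log2 ratio of 2 genes within each mouse was compared between the genotypes at 12 months for all 28 pairs, a test chosen after the data were seen. The smallest p was 0.0159 in 3 pairs (exact permutation test, 2-sided, n = 5 per group), Benjamini-Hochberg adjusted p = 0.111 over the 28 pairs, and 0 pairs passed. The smallest p that 5 against 5 mice can give is 0.00794, so that at least 5 pairs at this p would have been needed for any pair to pass, and the test does not show that the genes fell alike. The largest of these 3 differences was between Calb1 and Gng13, whose log2 ratio was higher by 0.40 ± 0.092 (SE) in 304Q/304Q mice. The groups overlapped in all 28 ratios. With the GC and length trends removed the order changed, with Pcp4 at -0.60 and Gng13 at -0.53.

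**Figure D2:**
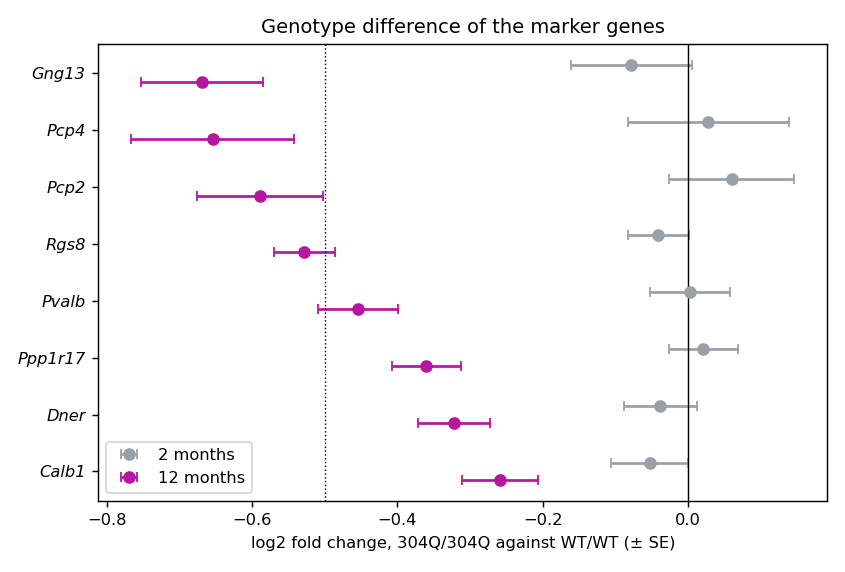
Log2 fold change of 304Q/304Q against WT/WT (x axis, ± SE of the fit, 5 mice per group) for each marker gene (y axis) at 2 months (grey) and 12 months (purple), with the DEG limit dotted. At 12 months the genes run from -0.67 (Gng13) to -0.26 (Calb1), and at 2 months from -0.08 to 0.06.

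At 2 months none of the 8 genes differed between the genotypes beyond the spread of the mice. The number past the adjusted p (Benjamini-Hochberg) was 0 by edgeR's quasi-likelihood test and 0 by DESeq2, against 0.0494% of all tested genes in either direction by edgeR, and 0 genes had an unadjusted p under 0.05. Log2 fold changes ran from -0.08 ± 0.083 for Gng13 to 0.06 ± 0.086 for Pcp2, with 4 genes below 0 and 4 above and a median of -0.02. Pcp2 had 4410, 4852, 4944, 5424 and 4525 counts in the WT/WT mice of 2 months and 4865, 5663, 5297, 4790 and 4569 in the 304Q/304Q mice. Gng13 had 1930, 2015, 1647, 2423 and 2108 counts in WT/WT and 2139, 1808, 1975, 1887 and 1775 in 304Q/304Q mice of this age. The genotypes overlapped for both genes, as for the other six, whereas 0.551% of all tested genes were lower and 0.494% higher without overlap.

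The change of the genotype effect between the ages was tested as an interaction. It passed the adjusted p in 7 of the 8 genes, against 1.31% of all genes tested that were lower, and reached the size of a DEG in 3, against 0.535%. The differences were -0.68 ± 0.16 for Pcp4 (edgeR quasi-likelihood test, Benjamini-Hochberg adjusted p = 0.0203), -0.65 ± 0.12 for Pcp2 (adjusted p = 0.00416) and -0.59 ± 0.12 for Gng13 (adjusted p = 0.00637). Rgs8 had -0.49 ± 0.059 and the lowest p of the 8 (edgeR quasi-likelihood test, Benjamini-Hochberg adjusted p = 5.99e-05). Calb1 did not pass, at -0.21 ± 0.074 (edgeR quasi-likelihood test, Benjamini-Hochberg adjusted p = 0.171), but this call changed with the processing. It passed at -0.30 with 3 surrogate variables (edgeR, adjusted p = 0.00225) and at -0.49 with the GC and length trends removed (edgeR, adjusted p = 0.012). With surrogate variables Pcp2 and Pcp4 no longer reached the size of a DEG in edgeR, and none of the 8 genes did in DESeq2. Without WT/WT replicate 3 of 12 months, Pcp4 no longer passed (edgeR quasi-likelihood test, Benjamini-Hochberg adjusted p = 0.0509), and Dner, at -0.28 ± 0.071 (adjusted p = 0.0338), lost its call without any one of 7 of the 20 libraries.

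The comparisons of the ages within each genotype share their groups with those above and are not independent of them. In WT/WT mice from 2 to 12 months, Pcp2 rose by 0.37 ± 0.086 on the log2 scale (edgeR quasi-likelihood test, Benjamini-Hochberg adjusted p = 0.00808) and Pvalb by 0.18 ± 0.055 (adjusted p = 0.0346), 2 of 8 genes against 6.08% of all tested genes higher. The Pvalb call was lost without any one of 7 of the 10 libraries (adjusted p = 0.134 by edgeR without WT/WT replicate 3 of 12 months). Pcp4 had a log2 fold change of 0.32 ± 0.11 (edgeR quasi-likelihood test, Benjamini-Hochberg adjusted p = 0.0607), and the median of the 8 genes was 0.12.

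In 304Q/304Q mice all 8 genes had a log2 fold change below 0 between 2 and 12 months, 7 of them passed the adjusted p, against 4.18% of all tested genes lower at this threshold, and 0 reached the size of a DEG, against 0.913%. The groups did not overlap for 6 of them, against 4.2% of all genes. Gng13 had a log2 fold change of -0.45 ± 0.084 (edgeR quasi-likelihood test, Benjamini-Hochberg adjusted p = 0.0009) and Rgs8 of -0.44 ± 0.042 (adjusted p = 1.47e-07). Dner had the smallest fall, with -0.24 ± 0.050 (edgeR quasi-likelihood test, Benjamini-Hochberg adjusted p = 0.0035). Pcp2 missed the threshold at -0.28 ± 0.086 (edgeR quasi-likelihood test, Benjamini-Hochberg adjusted p = 0.0507), and Pcp4 passed it at -0.36 ± 0.11 (adjusted p = 0.0494) but not without any one of 7 of the 10 libraries (adjusted p = 0.189 without 304Q/304Q replicate 2 of 2 months).

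The levels of the 8 genes were also described mouse by mouse, which does not test whether the genes vary together among mice. Set against the average of WT/WT mice aged 2 months, the mean log2 level of the 8 genes was -0.30, -0.34, -0.34, -0.36 and -0.36 in the 304Q/304Q mice of 12 months, and all 8 genes were below 0 in each of these 5 mice. In the WT/WT mice of 12 months it was 0.04, 0.15, 0.27, 0.07 and 0.16. Mice of 2 months lay between -0.05 and 0.10.

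**Figure D3:**
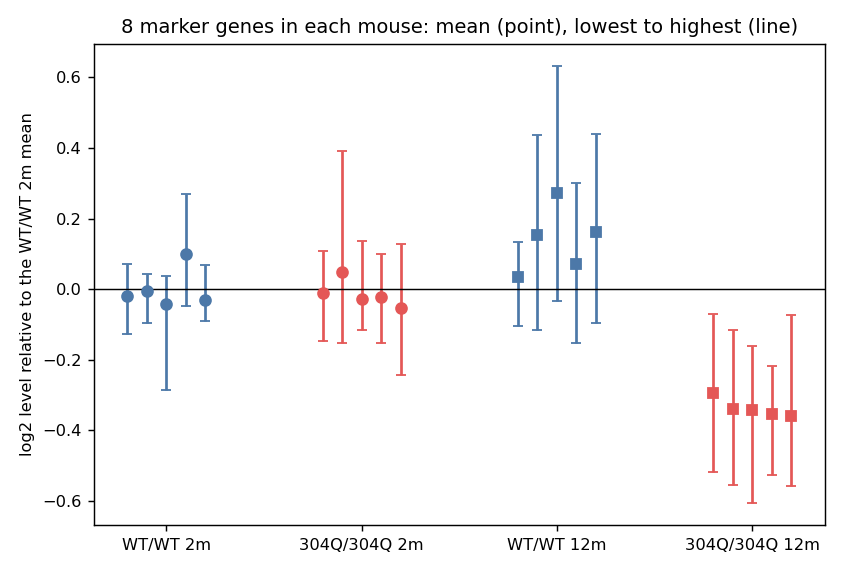
Log2 level set against the average of the 5 WT/WT mice aged 2 months (y axis) for each mouse of the 4 groups (x axis), with the mean of the 8 marker genes as a point and the lowest to highest gene as a line. In the 5 304Q/304Q mice of 12 months the whole line is below 0.

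Whether the genes also varied together among mice of the same group was tested on the deviations of log2 CPM (counts scaled to the size of the library) from the group means over 20 mice. Of 28 pairs of genes, 0 passed the adjusted p by Pearson's r or Spearman's rho, whereas 8 and 6 pairs had an unadjusted p under 0.05 (permutation within groups, 100000 resamples, 2-sided, Benjamini-Hochberg over the 28 pairs). Pearson's r had a median of 0.255, and 17 of 28 pairs were above 0. Within the mice of 1 age the median r was 0.212 at 2 months and 0.265 at 12 months, and within 1 genotype 0.415 for WT/WT mice and -0.0628 for 304Q/304Q mice. With the GC and length trends removed, the median r over 20 mice was 0.266, and 21 of 28 pairs were above 0. Dner then had an r below 0 with each of the other genes.

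The 2 strongest pairs had opposite signs and both held Calb1. Calb1 and Dner had an r of 0.656 (permutation p = 0.00425, adjusted p = 0.0612) and a rho of 0.672 (permutation p = 0.00293, adjusted p = 0.0526), and r was 0.655 without the 2 mice farthest from the median. Calb1 and Pcp4 had an r of -0.671 (permutation p = 0.00437, adjusted p = 0.0612) and a rho of -0.689 (permutation p = 0.00376, adjusted p = 0.0526), with r = -0.69 without the 2 farthest mice. With the GC and length trends removed, both pairs changed sign, to -0.718 and 0.746, and passed the adjusted p (permutation, adjusted p = 0.007 and 0.0014), while the SD of Calb1 within groups rose as given above. The direction in which Calb1 varied with the other genes within groups therefore depended on this step.

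**Figure D4:**
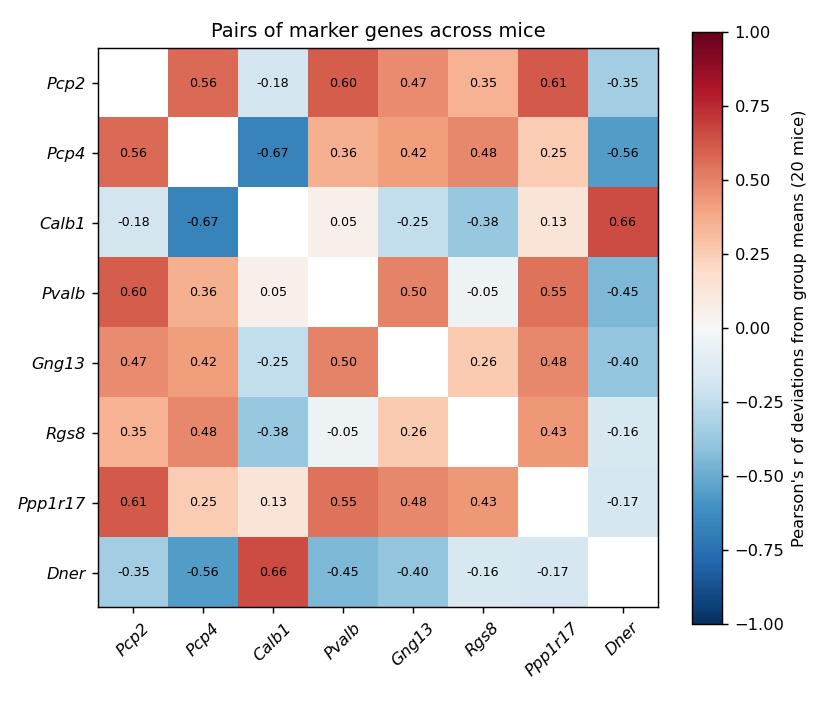
Pearson's r between each pair of marker genes (rows and columns) for deviations of log2 CPM from the group means over 20 mice, from blue (-1) to red (1). Dner is negative with 6 of the other genes, Calb1 and Pcp4 hold the lowest value (-0.671), and Calb1 and Dner the highest (0.656).

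Leaving out the 8 genes themselves, the genes whose deviations were most like the mean deviation of the 8 were Thy1, Ppdpf, Mvk, Ndufv3, Tonsl, Exosc5, Tpi1, Rpl7a, Selenow and Pebp1, with r between 0.794 and 0.857 over 20 mice. Of these 10 genes, 0 were among 20 other genes of Purkinje cells, whose median r was 0.221, against 0.0211 over all genes tested. All values come from the same 20 libraries and are a description.

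Per kilobase of exons, Pvalb had the highest level in WT/WT mice of 2 months, 780 ± 24.8 CPM per kilobase (SD, n = 5). Pcp2 (186 ± 15.3), Gng13 (184 ± 25.6), Ppp1r17 (166 ± 6.74), Rgs8 (164 ± 5.92) and Calb1 (155 ± 6.80 CPM per kilobase) followed, and neighbours in this order differed by less than the sum of their SDs. Dner (105 ± 4.07) and Pcp4 (43.7 ± 4.30 CPM per kilobase) stood lower, each farther from its neighbours than the sum of the SDs. In the GENCODE annotation of GRCm38 the protein-coding genes lie as follows. Pcp2 (ENSMUSG00000004630) lies at chr8:3623371-3625545 on the minus strand. Pcp4 (ENSMUSG00000090223) lies at chr16:96467606-96525793 on the plus strand. Calb1 (ENSMUSG00000028222) lies at chr4:15881264-15908064 on the plus strand. Pvalb (ENSMUSG00000005716) lies at chr15:78191114-78206400 on the minus strand. Gng13 (ENSMUSG00000025739) lies at chr17:25717171-25719406 on the plus strand. Rgs8 (ENSMUSG00000042671) lies at chr1:153653025-153700323 on the plus strand. Ppp1r17 (ENSMUSG00000002930) lies at chr6:56017497-56032689 on the plus strand. Dner (ENSMUSG00000036766) lies at chr1:84369839-84696221 on the minus strand. Genes overlapping in the annotation were Pet100 with Pcp2, Igsf5 with Pcp4, Chtf18 with Gng13, Gm29529 with Rgs8, and Gm37959, Gm37925 and Mir5126 with Dner, and the strand setting of the counting is not given in the sources used here.

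A list of 20 further genes of Purkinje cells, which shares no gene with the 8, was counted in the same fits. Like the 8, it was chosen with earlier results of these data known. At 12 months 17 of 20 had a log2 fold change below 0 in 304Q/304Q mice, with a median of -0.30. Past the adjusted p 15 of 20 were lower, against 7.3% of all tested genes, and 3 were DEGs, against 1.83% lower. The 3 DEGs were Homer3, a postsynaptic scaffold protein (-0.52 ± 0.069, edgeR quasi-likelihood test, Benjamini-Hochberg adjusted p = 1.2e-05), Itpka, an inositol trisphosphate kinase (-0.52 ± 0.12, adjusted p = 0.00426), and Skor2, a transcriptional corepressor (-0.50 ± 0.11, adjusted p = 0.00242). At 2 months 0 of 20 passed the adjusted p and 0 had an unadjusted p under 0.05. The interaction passed in 8 of 20, against 1.31% of all tested genes that were lower. The transcription factors Rora (0.08 ± 0.12) and Foxp2 (0.00 ± 0.16), named after their values were seen, were among the genes not below 0 at 12 months.

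**Figure D5:**
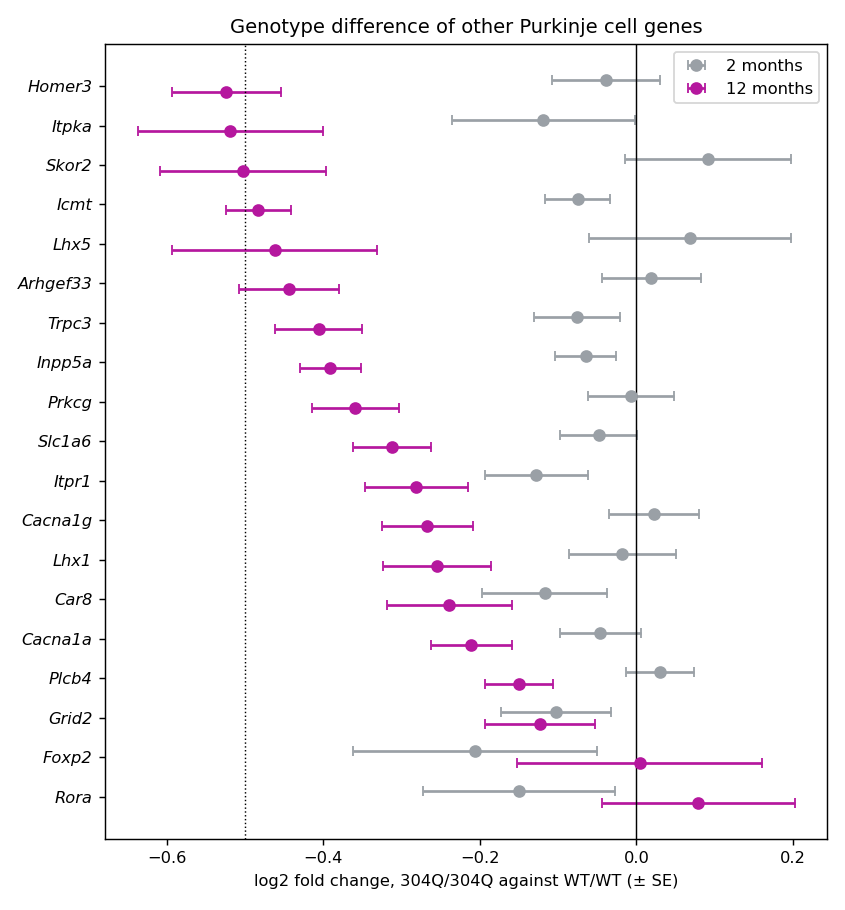
Log2 fold change of 304Q/304Q against WT/WT (x axis, ± SE of the fit, 5 mice per group) for 19 other Purkinje cell genes (y axis) at 2 months (grey) and 12 months (purple), with the DEG limit dotted. At 12 months 17 of these 19 genes lie below 0 and the lowest is Homer3 at -0.52.

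The binding partners and targets of the 8 proteins, calmodulins, G protein subunits, phosphatase subunits, protein kinase G and Notch receptors, mostly did not pass the test. Of 21 tested genes of this list 1 was lower past the adjusted p at 12 months, against 7.3% of all tested genes. It was the phosphatase catalytic subunit Ppp1cc, named after its value was seen (-0.30 ± 0.049, edgeR quasi-likelihood test, Benjamini-Hochberg adjusted p = 0.000157). The median log2 fold change of the list was 0.01. The largest change was that of Ppp1cb, another catalytic subunit, with 0.33 ± 0.17 (edgeR quasi-likelihood test, Benjamini-Hochberg adjusted p = 0.202). At 2 months 0 of 21 passed the adjusted p and 0 had an unadjusted p under 0.05.

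Markers of some other cerebellar cells also differed between the genotypes at 12 months. The counts of markers called lower or higher are those past the adjusted p. Of all tested genes 7.3% were lower and 5.23% higher at this threshold. The summed level of the 8 genes was 4570 to 5080 CPM in WT/WT and 3380 to 3610 CPM in 304Q/304Q mice. Of 11 markers of molecular layer and Golgi interneurons 6 were lower, and all 11 had a log2 fold change below 0, with sums of 1550 to 1630 and 1350 to 1430 CPM. Of 9 oligodendrocyte markers 4 were lower, and 8 had a log2 fold change below 0, with sums of 5240 to 5970 and 3440 to 4760 CPM. Of 9 markers of astrocytes and Bergmann glia 3 were lower, with sums of 3610 to 3680 and 3330 to 3460 CPM. Here 6 had a log2 fold change below 0 and 3 above 0. The 1 tested unipolar brush cell marker, Eomes, was lower as well, with sums over 3 markers of 26.3 to 80.5 and 13.1 to 19.5 CPM. Granule cell markers overlapped, with 6530 to 6910 and 6540 to 7250 CPM, 1 of 11 lower and 1 higher, and 2 of 7 tested microglia markers were higher, with sums of 136 to 167 and 143 to 189 CPM. Choroid plexus sums ran from 151 to 2890 CPM in WT/WT and from 110 to 2080 CPM in 304Q/304Q mice, with 0 of 4 tested markers past the adjusted p. Neurons from outside the cerebellum gave 10.2 to 13.3 and 7.2 to 14 CPM. At 2 months the sum of the 8 genes overlapped between WT/WT (4350 to 4620 CPM) and 304Q/304Q mice (4300 to 4500 CPM). The sums of interneuron markers (1580 to 1620 and 1470 to 1550 CPM) and oligodendrocyte markers (5680 to 6530 and 4920 to 5570 CPM) did not overlap at this age. Of these markers 0 of 11 and 1 of 9 were lower past the adjusted p at 2 months, against 0.0411% of all tested genes. Of 11 granule cell markers 1 was higher at 2 months, against 0.00823% of all tested genes. The sums of the other lists overlapped. The part of these cell types in the fall of the 8 genes was not tested.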

How the data were processed

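RNA-seq of polyA-selected RNA measured gene expression in cerebella of 20 mice (TruSeq Stranded, paired reads). Reads were mapped to GRCm38 by the authors with STAR, and the gene counts made with Rsubread were deposited as whole numbers, not normalized. From these counts, TMM scaling and edgeR's quasi-likelihood test (edgeR 4.0.16, R 4.3.3) were run in 1 model of 4 groups on 12153 genes whose mean count reached 50 (99.31% of all counts), with Benjamini-Hochberg adjustment over these genes. Normalized read counts are TMM-scaled counts at the mean library size, and log2 CPM used a prior count of 2. The lowest chi-square per degree of freedom between replicates was 3.895, above sampling noise in every pair. Total counts ran from 11385380 to 27636687 and member counts from 352 to 41618 per library. The common biological coefficient of variation over the tested genes was 0.1134. For the 8 genes it ran from 0.0627 (Ppp1r17) to 0.12 (Pcp4). Counting error was not set against this spread gene by gene. Groups came from the labels, and replicates were separate mice. Symbols and positions came from GENCODE and promoters from RefSeq. The named genes were all 8 members, DEGs and the 3 largest changes among 20 other Purkinje genes, DEGs and the largest change among 22 partners, the 10 other genes most like the members, and Atxn3, and a few outside this rule are marked in the text as named after their values were seen. The values of 1 gene on the list of 20 are not reported here. The members and lists were chosen with earlier results of these data known. Alternatives were DESeq2 1.42.0, 3 surrogate variables (sva 3.50.0), DESeq2 size factors, other filters on low counts, fits of the compared groups alone, a replicate block, calls without the fold threshold, and each library left out in turn. Scripts were tested on simulated data.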

Additional observations from a re-analysis of the deposited data

Results flagged for a closer look

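The genotype effect differed between 2 and 12 months in 7 of the 8 genes, against 1.31% of all tested genes that were lower. This was the interaction term of the model (edgeR quasi-likelihood test, Benjamini-Hochberg adjusted over all 12153 genes). The log2 difference of the effects, 12 minus 2 months, was -0.65 for Pcp2, -0.68 for Pcp4, -0.46 for Pvalb and -0.59 for Gng13. It was -0.49 for Rgs8, -0.38 for Ppp1r17 and -0.28 for Dner. In each of these genes the 5 304Q/304Q mice lay below the 5 WT/WT mice at 12 months and overlapped with them at 2 months. Of all tested genes 5.43% were lower without overlap at 12 months. Among the values of the 8 genes in the 4 groups, 0 mice stood apart from the other 4 by Dixon's criterion.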

How the results depend on the processing

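At 12 months all 8 genes stayed lower and past the adjusted p under every alternative run. The count of DEGs there, 4, became 1 with 3 surrogate variables in DESeq2 and 1 in edgeR, 8 with no threshold on the fold change, and 3 to 4 with 1 library left out. For the interaction it was 3, against 0 and 1 with surrogate variables in DESeq2 and edgeR, 7 with no fold threshold, and 2 to 4 with 1 library left out. The count past the adjusted p in the interaction was 5 to 7 with 1 library left out. For age in WT/WT, 2 genes passed the adjusted p, against 0 and 0 with surrogate variables in DESeq2 and edgeR, 1 with no filter on low counts, 1 with only the groups compared, 1 with GC and length trends removed, and 1 to 3 with 1 library left out, and DEGs were 0, or 2 with no fold threshold. For age in 304Q/304Q, DEGs were 0, or 7 with no fold threshold, and 6 to 8 genes passed the adjusted p with 1 library left out. Correlated pairs were 0, against 1 with surrogate variables removed, 2 with GC and length trends removed, and 0 to 1 with 1 library left out. For surrogate variables and trends the permutations were not refitted. At 2 months 0 genes passed under any alternative, and Pcp4 and Pvalb changed sign under some. With WT/WT replicates 1 and 3 of 12 months left out together, chosen after the data were seen as was the trend removal, Calb1 at 12 months was -0.22 (edgeR, adjusted p = 0.0219) and the Dner interaction no longer passed (adjusted p = 0.0744). Same-numbered mice correlated between -0.323 and 0.551, and differently numbered mice between -0.555 and 0.33. In the comparison of the ages in WT/WT, 2 mice were most alike with the mouse of their own number, and 0 in the other comparisons. The numbers were therefore not taken as pairs, and a pairing was not excluded. With the replicate block the DEG counts were 4 at 12 months and 3 for the interaction, and correlated pairs were 0 with permuted deviations centred again. In that fit the Dner interaction (edgeR, adjusted p = 0.0683) and Pcp4 with age in 304Q/304Q (adjusted p = 0.0824) lost their calls, while Pcp2 with age gained it (adjusted p = 0.0405). The causes were not tested.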
